A study of Mus musculus with 10 samples.

Results

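Genes of the cell cycle and of DNA replication were followed in innate lymphoid cells (ILCs) of mouse skin. The set has 46 genes of the 47643 gene IDs in the deposited tables, picked by symbol, and holds 19 genes of S phase (the phase in which DNA is copied), 25 of G2 and mitosis (called mitotic here) and 2 that were put in neither class, Mybl2 and Stmn1. All 46 passed the filter on low counts.

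ILCs are lymphocytes of tissues that carry no rearranged antigen receptor. They were sorted from the skin of adult mice of the B6 strain, with no transgene, deletion or treatment named for any group, and their RNA was sequenced in 10 libraries. Epidermal ILCs came from the outer epithelial layer (3 libraries), and subcutaneous ILCs from the layer under the dermis (3 libraries). Dermal ILCs were sorted either as CCR6+, for a chemokine receptor (2 libraries), or as Sca1+, for the surface protein encoded by Ly6a (2 libraries). Nothing in the labels says whether the replicates of a group came from separate mice or pools, so p-values reflect only how far these libraries differ, a spread that may be technical.

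Dividing cells switch on S-phase and mitotic genes in waves. Transcription factors of the E2F family, released from the retinoblastoma protein once cyclin D and cyclin E kinases are active, drive the genes of replication. The mitotic genes follow later under the B-Myb and FoxM1 proteins, which act with the MuvB complex at short promoter elements, while the same core complex joined to an E2F and to p130 holds both gene classes down in resting cells.

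Library totals lay between 11627222 and 18118544 expected counts. Levels of a gene are given in CPM, counts scaled to library size after TMM normalisation, where 3 counts correspond to between 0.149 and 0.258 CPM, and levels of different genes are compared in TPM, which corrects for gene length. Ptprc, the leukocyte antigen CD45, lay between 641 and 1327 CPM, and Il7r, a receptor that ILCs carry, between 479 and 602 CPM. Ccr6 was at 779 and 888 CPM in the dermal CCR6+ libraries and at 40.9 and 102 in the dermal Sca1+ libraries, and Ly6a at 213 and 101 against 1418 and 1394 CPM. RNA typical of other cells was present in unequal amounts. The 12 keratinocyte markers summed to between 3621 and 10208 CPM in the epidermal, 1705 and 2411 in the dermal and 110 and 248 in the subcutaneous libraries (Lor was at 0 in both dermal CCR6+ libraries). The 8 fibroblast markers reached at most 17.1 CPM in the epidermal libraries, with Mfap5 and Pdgfra at 0, against 1231 to 3792 in the dermal and 2944 to 4463 in the subcutaneous ones. Macrophage and dendritic cell markers (10 genes) summed to 399 to 486 CPM in the epidermal libraries, where Itgax and Mrc1 were at 0, 1111 to 2220 in the dermal ones and 5411 to 9827 in the subcutaneous ones. Endothelial markers (8 genes) summed to at most 7.86 CPM in the epidermal libraries, with Cdh5, Kdr and Plvap at 0, and to 168 to 606 CPM in the others. The 5 glandular epithelium markers reached 1500.02 to 4163 CPM in the subcutaneous libraries against 24.95 to 72.02 in the others, where Ltf was at 0. The 9 T cell markers were highest in the dermal CCR6+ libraries, at 683 and 516 CPM, against 332 to 454 in the epidermal, 331 and 189 in the dermal Sca1+ and 162 to 393 in the subcutaneous libraries, and Cd3g was the 1 T cell marker called, higher in the dermal CCR6+ than the subcutaneous libraries. The 7 mast cell markers summed to 177 to 350 CPM in the epidermal, 183 and 275 in the dermal CCR6+, 441 and 649.7 in the dermal Sca1+ and 315 to 709.7 in the subcutaneous libraries, with Fcer1a at 0 outside the last. Subcutaneous replicate 2 stood apart from the other two of its group with 567 CPM over 7 NK cell and ILC1 markers (34.7 and 10.2 in the others) and had the highest level in its group for 34 of the 46 cell cycle genes. The part of these cells and of this library in the differences between groups was not tested, and in RNA of bulk samples fewer cycling cells and less of a transcript per cell cannot be told apart.

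The set as a whole was lowest in the subcutaneous ILCs and highest in the dermal CCR6+ and epidermal ILCs. Summed over the 46 genes, the level was 1711, 1363 and 1357 TPM in the epidermal libraries, 1529 and 1851 in the dermal CCR6+, 1190.0 and 1002 in the dermal Sca1+ and 615, 871 and 436 in the subcutaneous libraries. All epidermal and dermal libraries thus lay above all subcutaneous ones. The most abundant member per length was Stmn1, which encodes the microtubule-destabilising protein stathmin, at 504 TPM on average in dermal CCR6+ and 117 in subcutaneous ILCs, followed by Pcna, Mcm6, Cenpa and Ube2c. Cenpe and Mcm10 were the least abundant, with group means from 0.19 to 2.04 TPM for Cenpe.

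In CPM, the genes of the 2 phases were not highest in the same ILCs. Of the 25 mitotic genes, 20 had their highest group mean in the epidermal ILCs and 5 in the dermal CCR6+ ILCs. Of the 19 S-phase genes, 14 had it in the dermal CCR6+ ILCs, 3 in the dermal Sca1+ ILCs and 2 in the epidermal ILCs. In TPM the mitotic split was the same, while 10 S-phase genes were highest in the dermal CCR6+, 3 in the dermal Sca1+ and 6 in the epidermal ILCs (Cdc45, Gins2, Mcm3, Rrm2, Tk1 and Tyms). In CPM no member had its highest mean in the subcutaneous ILCs, which had the lowest mean for 21 mitotic and 10 S-phase genes, while the dermal Sca1+ ILCs had the lowest for 4 mitotic and 8 S-phase genes. These are orders of means, many of them between neighbours that differed by less than the spread of their libraries.

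**Figure D1:**
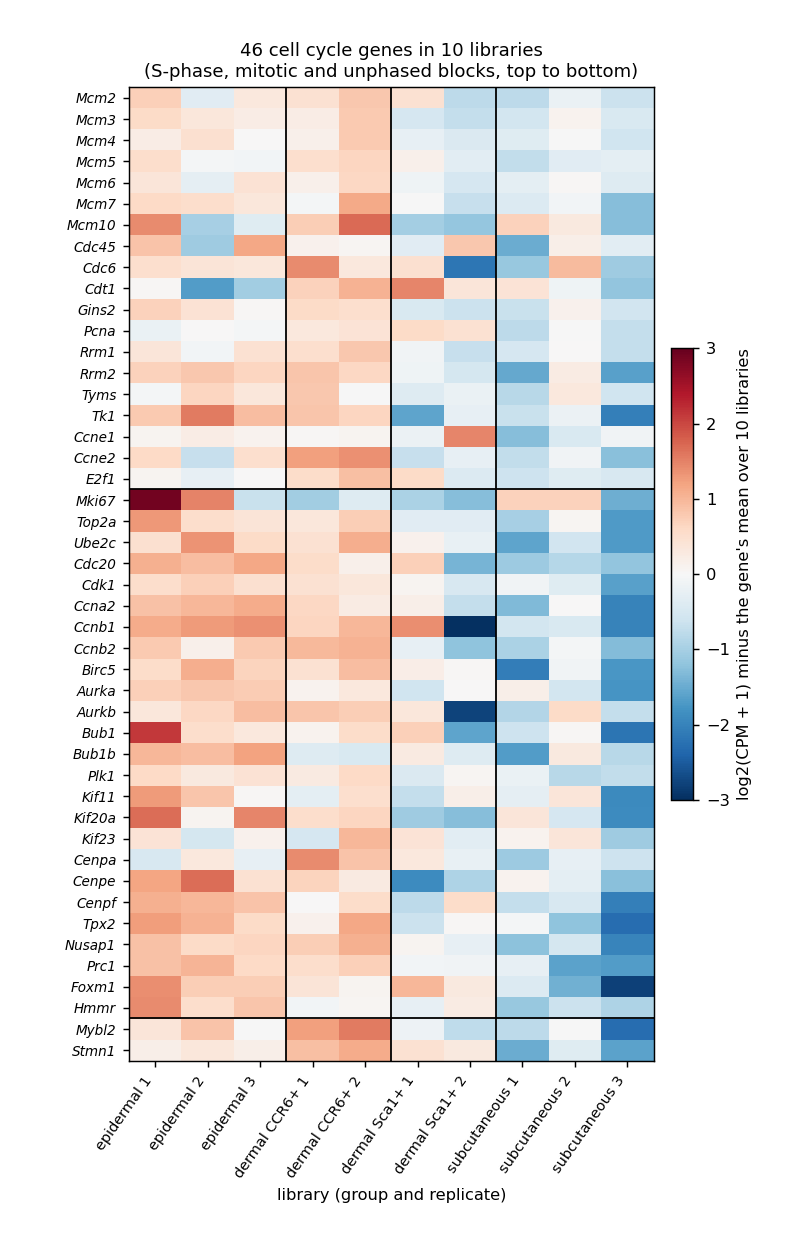
Level of each of the 46 genes (vertical axis) in each of the 10 libraries (horizontal axis), as log2(CPM + 1) minus that gene's mean over the libraries, with the colour scale ending at -3 and 3. Mitotic genes (middle block) are mostly red in the 3 epidermal libraries, S-phase genes (top block) in the 2 dermal CCR6+ libraries, and the subcutaneous libraries are mostly blue, most of all replicate 3, which was the lowest of all libraries for 25 genes.

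The promoters of both classes carry different short elements, and 8 are shown because they belong to genes whose values are given further on. Promoters of 300 bases, from 250 before to 50 after the start of transcription, were found for 37 of the 46 genes in RefSeq's table for GRCm38.p6. Both strands were searched for the CHR element (TTTGAA or TTCGAA), the docking sequence of MuvB, for an E2F site (TTTCCCGC, TTTGGCGC, TTTCGCGC or TTTGCCGC, which can overlap one another), and for the CCAAT box bound by NF-Y. The 250 bases before the start are printed 5′ to 3′ on the gene's strand, with matches on either strand in capitals. Windows of the mitotic genes are those of Cdc20 (build GRCm38.p6, chr4:118437344-118437593, minus strand), Ube2c (chr2:164769679-164769928, plus strand), Ccnb2 (chr9:70421555-70421804, minus strand), Ccnb1 (chr13:100786487-100786736, minus strand) and Plk1 (chr7:122159185-122159434, plus strand). Windows of the S-phase genes are those of Mcm5 (chr8:75109259-75109508, plus strand), Mcm6 (chr1:128359706-128359955, minus strand) and Ccne1 (chr7:38107491-38107740, minus strand).
Cdc20: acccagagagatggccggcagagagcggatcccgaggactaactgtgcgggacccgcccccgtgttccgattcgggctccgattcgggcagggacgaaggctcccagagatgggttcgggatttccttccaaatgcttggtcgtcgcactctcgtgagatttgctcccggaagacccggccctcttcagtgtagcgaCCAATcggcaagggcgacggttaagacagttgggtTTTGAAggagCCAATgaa
Ube2c: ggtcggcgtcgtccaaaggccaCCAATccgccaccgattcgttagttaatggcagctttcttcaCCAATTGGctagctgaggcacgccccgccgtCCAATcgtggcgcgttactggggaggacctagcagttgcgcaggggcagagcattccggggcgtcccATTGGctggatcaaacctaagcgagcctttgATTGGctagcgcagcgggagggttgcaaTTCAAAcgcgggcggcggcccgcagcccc
Ccnb2: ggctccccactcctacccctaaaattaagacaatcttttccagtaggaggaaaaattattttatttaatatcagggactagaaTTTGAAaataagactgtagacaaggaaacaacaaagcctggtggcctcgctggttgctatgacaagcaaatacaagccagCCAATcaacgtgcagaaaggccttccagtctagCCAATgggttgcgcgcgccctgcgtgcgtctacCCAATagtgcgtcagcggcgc
Ccnb1: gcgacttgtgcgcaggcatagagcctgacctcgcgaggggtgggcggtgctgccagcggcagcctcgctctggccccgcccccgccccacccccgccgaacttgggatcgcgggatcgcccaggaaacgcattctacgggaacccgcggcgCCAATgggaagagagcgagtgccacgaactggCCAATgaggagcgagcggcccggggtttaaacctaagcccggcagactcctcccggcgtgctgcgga
Plk1: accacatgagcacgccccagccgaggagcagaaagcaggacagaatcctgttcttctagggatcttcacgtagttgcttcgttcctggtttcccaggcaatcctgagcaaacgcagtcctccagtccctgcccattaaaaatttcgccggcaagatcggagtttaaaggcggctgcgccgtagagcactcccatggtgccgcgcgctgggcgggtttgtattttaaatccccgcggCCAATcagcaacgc
Mcm5: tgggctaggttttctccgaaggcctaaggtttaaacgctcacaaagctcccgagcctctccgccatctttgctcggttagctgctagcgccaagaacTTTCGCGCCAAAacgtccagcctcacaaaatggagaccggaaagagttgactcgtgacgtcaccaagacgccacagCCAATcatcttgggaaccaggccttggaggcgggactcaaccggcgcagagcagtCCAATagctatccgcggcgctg
Mcm6: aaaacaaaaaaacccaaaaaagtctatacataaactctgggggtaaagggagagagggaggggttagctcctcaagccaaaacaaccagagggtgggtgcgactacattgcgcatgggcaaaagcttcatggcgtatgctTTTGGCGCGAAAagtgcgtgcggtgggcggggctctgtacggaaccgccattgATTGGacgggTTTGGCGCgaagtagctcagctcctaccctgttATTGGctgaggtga
Ccne1: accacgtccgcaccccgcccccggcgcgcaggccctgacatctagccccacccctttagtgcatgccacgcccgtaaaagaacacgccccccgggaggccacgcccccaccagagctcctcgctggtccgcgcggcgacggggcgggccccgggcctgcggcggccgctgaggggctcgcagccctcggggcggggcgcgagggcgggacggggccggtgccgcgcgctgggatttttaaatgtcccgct

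In the Cdc20 window a CHR match began 18 bases before the start, and CCAAT matches began 53 and 8 bases before it. The Ube2c window held a CHR match on the other strand, which began 29 bases before the start, and 6 CCAAT matches. Plk1 and Ccnb2 had a CHR match after the start, outside the printed stretch. Ccnb1 had 2 CCAAT matches and no CHR match. Overlapping E2F matches of opposite strands were present in Mcm5 and Mcm6, where they began 153 and 149, and 110 and 106, bases before the start. None of the 3 elements was found in the Ccne1 window.

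Over all promoters of the classes, a CHR match was present in 17 of 21 mitotic promoters (81.0%) and 3 of 17 S-phase promoters (17.6%), against 19.2% of the 32851 promoters of the table. An E2F match was present in 6 of 17 S-phase promoters (35.3%) and 1 of 21 mitotic promoters (4.76%), that of Cdk1, against 2.26% of all promoters. CCAAT matches were found in 19 of 21 mitotic (90.5%) and 11 of 17 S-phase promoters (64.7%), against 37.4% of all. These shares describe letters in a window and were not tested, and Mcm7 and Prc1 count with 2 promoters each. For 4 of the promoters (Cdc6, E2f1 and both of Mcm7) the table's start lay over 200 bases inside the annotated gene.

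The mean levels of the classes were set against each other in each library. The mean over the S-phase genes minus the mean over the mitotic genes, on the log2(TPM + 1) scale, was 0.48, 0.25 and 0.56 in the epidermal libraries, 1.12 and 0.996 in the dermal CCR6+, 0.81 and 1.09 in the dermal Sca1+ and 0.83, 1.12 and 1.37 in the subcutaneous libraries. The group values were 0.43 ± 0.16 (SD, n = 3), 1.06 ± 0.09 (n = 2), 0.95 ± 0.20 (n = 2) and 1.11 ± 0.27 (n = 3). All 3 epidermal libraries lay below the other 7, and they also did so with the 5 other ways of summarising the classes that were tried, although with medians over genes the highest epidermal value, 1.34, was close to the lowest of the others, 1.36. As a ratio of mean TPM, S-phase genes were 1.61 times the mitotic genes in the epidermal, 1.92 times in the dermal CCR6+, 2.34 times in the dermal Sca1+ and 3.04 times in the subcutaneous libraries. Epidermal replicate 1 had the highest mean of both classes and the lowest keratinocyte marker sum of the epidermal libraries (3621 against 10208 and 9245 CPM). No test was made of a score over these genes.

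**Figure D2:**
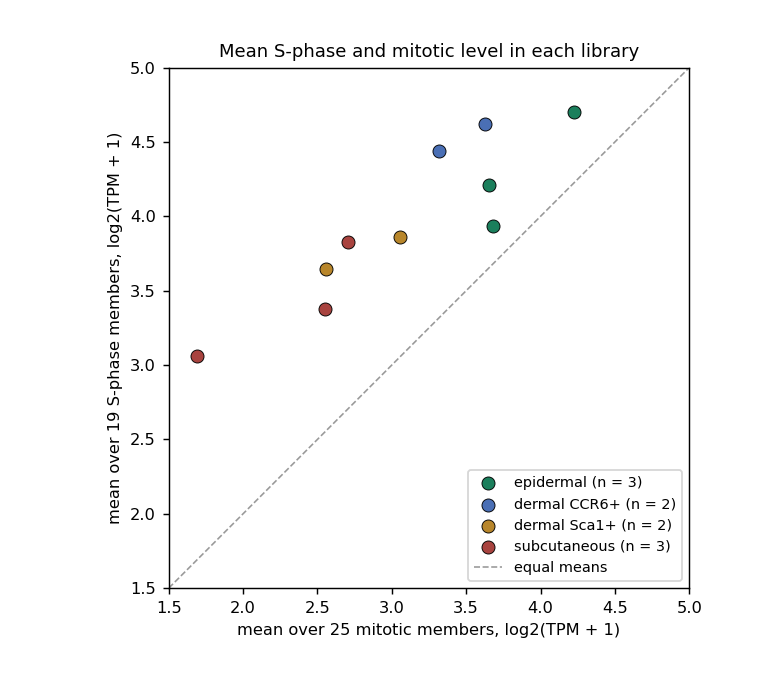
Mean level of the 19 S-phase genes (vertical axis) against that of the 25 mitotic genes (horizontal axis) in each library, both as mean log2(TPM + 1), coloured by group. The dashed line marks equal means, and the 3 epidermal libraries lie nearest to it, at 0.25 to 0.56 above it, the other libraries at 0.81 to 1.37.

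Between epidermal and subcutaneous ILCs, 13 of the 46 genes were called (adjusted p under 0.05 in edgeR's quasi-likelihood test, adjusted over all genes by the Benjamini-Hochberg method), all 13 higher in the epidermis. Over the 16208 genes tested 20.2% were called, 6.87% higher and 13.3% lower. They were 1 of the 19 S-phase genes, Tk1, 11 of the 25 mitotic genes (Birc5, Ccna2, Ccnb2, Cdc20, Cenpf, Hmmr, Nusap1, Prc1, Top2a, Tpx2 and Ube2c), and Stmn1. The median log2 fold change was 1.82 over the mitotic genes and 0.65 over the S-phase genes, against -0.02 over all genes tested. Of the 46 genes 45 had a fold change above 0, Cdt1 being the exception, and 29 had all epidermal libraries above all subcutaneous ones (19 mitotic, 8 S-phase, Mybl2 and Stmn1), which was so for 17.2% of all genes. The calls of Cdc20, Hmmr, Nusap1, Prc1 and Ube2c held without each single library, and the other 8 were lost without at least 1. Without subcutaneous replicate 3 the count was 5, and without subcutaneous replicate 1 or epidermal replicate 3 it was 7. Over all genes the number called higher also fell, from 1113 to 767, 755 and 698 in these fits, in the order given.

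Dermal CCR6+ ILCs also differed from subcutaneous ILCs. Of the 46 genes 7 were called, all higher in the dermal CCR6+ ILCs (Mcm5, Ccnb2, Cenpa, Nusap1, Prc1, Ube2c and Stmn1), against 3.75% of all genes called higher. The medians of the 2 classes lay closer to each other here, at 1.35 for mitotic and 1.05 for S-phase genes (-0.08 over all genes). Of the 46 genes 45 had a fold change above 0, the exception being Mki67, and 38 had both dermal CCR6+ libraries above all 3 subcutaneous ones, against 19.8% of all genes. The call of Stmn1 held without each single library. The count was 3 without subcutaneous replicate 1 or 3, and 11 without subcutaneous replicate 2. Over all genes 608 were called higher with all libraries, and 401, 411 and 454 without subcutaneous replicates 1, 3 and 2. Calls were also lost without either dermal CCR6+ library, where a lone library remains in that group. This comparison and the first share the subcutaneous libraries.

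In the level summed over the set, the dermal Sca1+ ILCs lay between these groups. In CPM they had the lowest group mean for 8 of the 19 S-phase genes and the highest for 3. Epidermal ILCs differed from dermal Sca1+ ILCs by 2 called genes, Mcm3 and Cenpe, both higher in the epidermis. Of all genes 2.75% were called higher and 8.66% lower. The median log2 fold change was 1.05 over mitotic and 0.64 over S-phase genes. Neither call held in all fits without 1 library. The call of Mcm3 was lost without any epidermal or dermal Sca1+ library or subcutaneous replicate 3, and that of Cenpe without any library but subcutaneous replicate 3. Dermal Sca1+ and subcutaneous ILCs differed in no member called by edgeR (2.2% of all genes were called). In edgeR the medians were 0.70 for mitotic and 0.20 for S-phase genes. DESeq2 and limma called 2 members each. Over all 16208 genes DESeq2 called 486 higher and 707 lower, and limma 356 and 535. Without subcutaneous replicate 2 edgeR called 3 members, namely Birc5, Pcna and Stmn1, all higher in the dermal Sca1+ ILCs. Of 15963 genes in that fit 138 were called higher and 80 lower, against 196 and 161 with all libraries.

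In the remaining comparisons no member was called by edgeR. Between dermal CCR6+ and dermal Sca1+ ILCs 0.642% of all genes were called by edgeR. DESeq2 called 2 members and limma 0. Over all 16208 genes DESeq2 called 263 higher and 298 lower, and limma 61 and 90. The medians in edgeR were 0.85 for S-phase and 0.61 for mitotic genes. Of the 46 genes 29 had both dermal CCR6+ libraries above both dermal Sca1+ libraries (19.3% of all genes). Between epidermal and dermal CCR6+ ILCs 6.18% of all genes were called by edgeR. DESeq2 called 2 members and limma 1. Over all 16208 genes DESeq2 called 585 higher and 1416 lower, and limma 390 and 707. In edgeR the classes had opposite signs between these ILCs. The fold change was below 0 for 16 of 19 S-phase genes (median -0.25) and above 0 for 20 of 25 mitotic genes (median 0.44). With limma on log2(TPM + 1) the medians kept these signs, at -0.11 and 0.47, with 11 of 19 S-phase genes below 0.

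**Figure D3:**
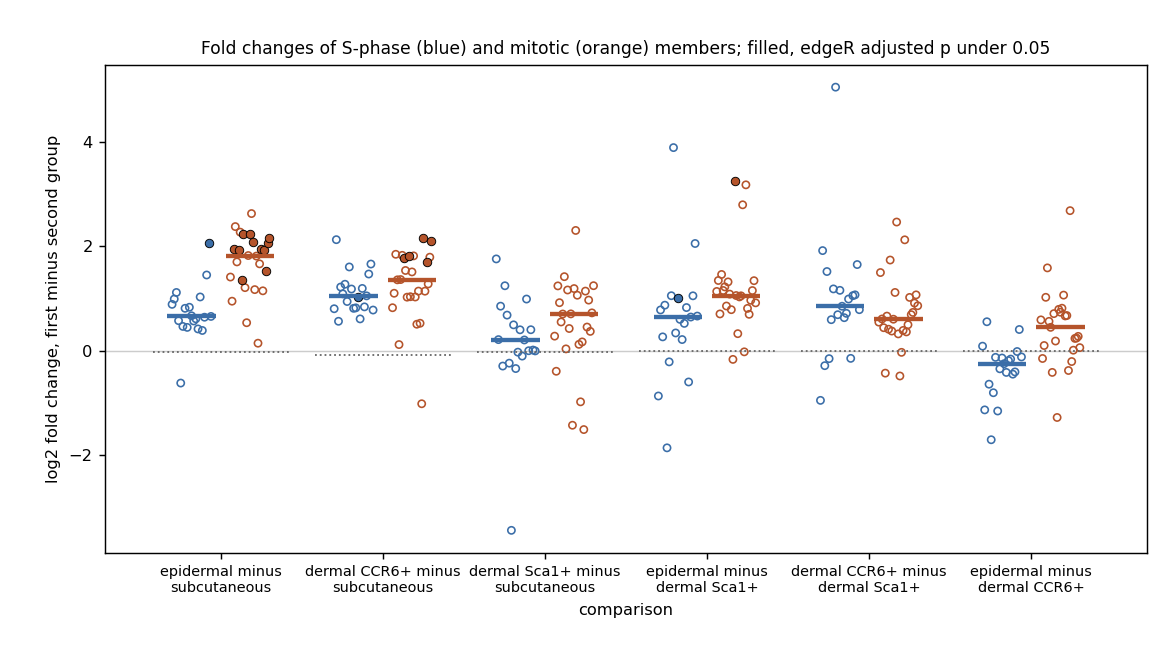
Log2 fold change (vertical axis) of each S-phase gene (blue) and mitotic gene (orange) in the 6 comparisons (horizontal axis), with thick bars at the class medians, dotted lines at the median of all genes tested, and filled points for genes called by edgeR. Most filled points are mitotic genes of the first comparison, epidermal minus subcutaneous, where the medians were 1.82 and 0.65, and in the last, epidermal minus dermal CCR6+, the medians lie on opposite sides of 0 with no gene called.

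The replicative helicase that unwinds DNA at the fork is a ring of Mcm2 to Mcm7. All 6 subunits were highest on average in the dermal CCR6+ ILCs in CPM, and all but Mcm3 in TPM. Mcm5 was at 99.1, 66.2 and 65.4 CPM in the epidermal, 97.7 and 108 in the dermal CCR6+, 77.4 and 55.5 in the dermal Sca1+ and 40.97, 54.7 and 55.8 in the subcutaneous libraries. Both dermal CCR6+ libraries lay above all subcutaneous ones, and the log2 fold change between these groups was 1.03 (SE 0.26, edgeR adjusted p = 0.0424). Mcm5 was the only subunit called there, the others having fold changes of 0.61 to 1.19. Leaving out any dermal CCR6+ or subcutaneous library ended this call.

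Mcm3 stood at 101, 86.9 and 80.1 CPM in the epidermal, 79.97 and 118 in the dermal CCR6+, 47.6 and 41.2 in the dermal Sca1+ and 46.1, 74.00 and 49.1 in the subcutaneous libraries. The epidermal and dermal CCR6+ libraries were all above the dermal Sca1+ ones, and the fold change of epidermal over dermal Sca1+ ILCs was 1.01 (SE 0.28, edgeR adjusted p = 0.0449). For Mcm2 the values were 113, 53.6 and 84.8 CPM in the epidermal, 94.2 and 119 in the dermal CCR6+, 93.8 and 38.8 in the dermal Sca1+ and 39.2, 58.8 and 43.5 in the subcutaneous libraries. Dermal Sca1+ replicate 1 lay with the epidermal libraries and replicate 2 with the subcutaneous ones. Mcm6, the most abundant subunit in TPM, was at 202, 129.7 and 209.7 CPM in the epidermal, 173 and 239.7 in the dermal CCR6+, 143 and 109 in the dermal Sca1+ and 128, 159 and 119 in the subcutaneous libraries. Its groups overlapped except that both dermal CCR6+ libraries were above all subcutaneous and dermal Sca1+ ones, and edgeR called it in no comparison. Between epidermal and subcutaneous ILCs the 6 subunits had fold changes of 0.41 to 1.03, with adjusted p from 0.0843 to 0.263 in edgeR.

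Helicase loading at origins needs Cdc6 and Cdt1, and firing needs Mcm10, Cdc45 and the GINS subunit Gins2. These 5 genes stood at no more than 42.3 CPM in any library, and none was called in any comparison. Cdt1, the 1 member with a fold change below 0 between epidermal and subcutaneous ILCs, was at 14.9, 3.901 and 6.54 CPM in the epidermal, 24.3 and 30.9 in the dermal CCR6+, 42.3 and 19.2 in the dermal Sca1+ and 19.7, 13.4 and 5.87 in the subcutaneous libraries. All epidermal libraries were below both dermal CCR6+ libraries and below both dermal Sca1+ ones. The fold changes were -1.71 (SE 0.64, edgeR adjusted p = 0.164) against dermal CCR6+ and -1.86 (SE 0.64, edgeR adjusted p = 0.0921) against dermal Sca1+ ILCs. Mcm10 had 0 counts in subcutaneous replicate 3 and stood at 0.191 and 0.0860 CPM in the dermal Sca1+ libraries and 0.209 in epidermal replicate 2, against 5.47 CPM in epidermal replicate 1 and 3.02 and 6.799 CPM in the dermal CCR6+ libraries.

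Pcna, the sliding clamp that holds the polymerases on DNA, was at 117, 138 and 130.3 CPM in the epidermal, 169.9 and 182 in the dermal CCR6+, 204 and 186 in the dermal Sca1+ and 78.1, 135 and 81.8 in the subcutaneous libraries. Unlike the helicase, it was highest in the dermal Sca1+ ILCs. Both dermal Sca1+ libraries lay above all others and the epidermal libraries below all dermal ones. The fold change of dermal Sca1+ over subcutaneous ILCs was 0.99 (SE 0.25, edgeR adjusted p = 0.0781), and that of dermal CCR6+ over subcutaneous ILCs 0.84 (SE 0.25, edgeR adjusted p = 0.0713). Subcutaneous replicate 2, at the level of the epidermal libraries, lay far above the others of its group. Without it both of these differences were called by edgeR, with fold changes of 1.29 (adjusted p = 0.0171) and 1.14 (adjusted p = 0.0139), and so was that of epidermal over subcutaneous ILCs, at 0.68 (adjusted p = 0.0388). Reads of Pcna could be split with its 2 annotated pseudogenes.

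The enzymes of deoxynucleotide synthesis are both subunits of ribonucleotide reductase (Rrm1 and Rrm2), thymidylate synthase (Tyms) and thymidine kinase (Tk1). Tk1, the only S-phase gene called between epidermal and subcutaneous ILCs, was at 20.5, 35.5 and 22.5 CPM in the epidermal, 21.2 and 18.3 in the dermal CCR6+, 3.12 and 9.54 in the dermal Sca1+ and 6.76, 10.02 and 1.98 in the subcutaneous libraries. All epidermal and dermal CCR6+ libraries lay above all dermal Sca1+ and subcutaneous ones, and the fold change of epidermal over subcutaneous ILCs was 2.06 (SE 0.62, edgeR adjusted p = 0.0389). This call was lost without epidermal replicate 2 or 3, subcutaneous replicate 1 or 3, or either dermal CCR6+ library, with adjusted p up to 0.113 in edgeR. Rrm2 showed the same order of libraries in part, at 61.5, 67.3 and 59.4 CPM in the epidermal, 68.7 and 58.4 in the dermal CCR6+, 34.6 and 26.04 in the dermal Sca1+ and 12.3, 45.1 and 11.6 in the subcutaneous libraries. Subcutaneous replicate 2 lay between the other subcutaneous libraries and the epidermal ones, and the fold change of epidermal over subcutaneous ILCs, 1.45 (SE 0.47, edgeR adjusted p = 0.0536), missed the threshold. Without that library edgeR called it, at 2.39 (adjusted p = 0.000451), and DESeq2 and limma called it with all libraries (adjusted p of 0.017 and 0.00411). Tyms was at 22.3, 36.6 and 29.5 CPM in the epidermal, 41.1 and 23.04 in the dermal CCR6+, 17.4 and 19.9 in the dermal Sca1+ and 12.5, 28.8 and 14.9 in the subcutaneous libraries. Its epidermal and subcutaneous libraries overlapped through subcutaneous replicate 2, and edgeR called it in no comparison.

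Cyclin E (Ccne1 and Ccne2) and E2f1 act at the switch from G1 into S phase. E2f1 was at 25.6, 20.3 and 24.3 CPM in the epidermal, 35.7 and 46.3 in the dermal CCR6+, 36.4 and 17.96 in the dermal Sca1+ and 15.5, 18.6 and 16.97 in the subcutaneous libraries. Both dermal CCR6+ libraries lay above all epidermal and subcutaneous ones, with a fold change over subcutaneous ILCs of 1.27 (SE 0.35, edgeR adjusted p = 0.0526). DESeq2 called it (adjusted p = 0.0119), as did edgeR without either dermal Sca1+ library (adjusted p of 0.0385 and 0.033). Ccne1 was low throughout, at 3.96, 4.46 and 4.11 CPM in the epidermal, 3.85 and 4.03 in the dermal CCR6+, 3.18 and 12.1 in the dermal Sca1+ and 0.937, 2.43 and 3.41 in the subcutaneous libraries. Dermal Sca1+ replicate 2 lay far above every other library, and the 3 epidermal libraries were close to each other and above the subcutaneous ones. Ccne2 was at 20.1 and 22.1 CPM in the dermal CCR6+ libraries and at 2.78 to 12.5 CPM in the other 8, and its fold change over subcutaneous ILCs was 2.12 (SE 0.60, edgeR adjusted p = 0.0595), which DESeq2 and limma called (adjusted p of 0.0102 and 0.0256).

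**Figure D4:**
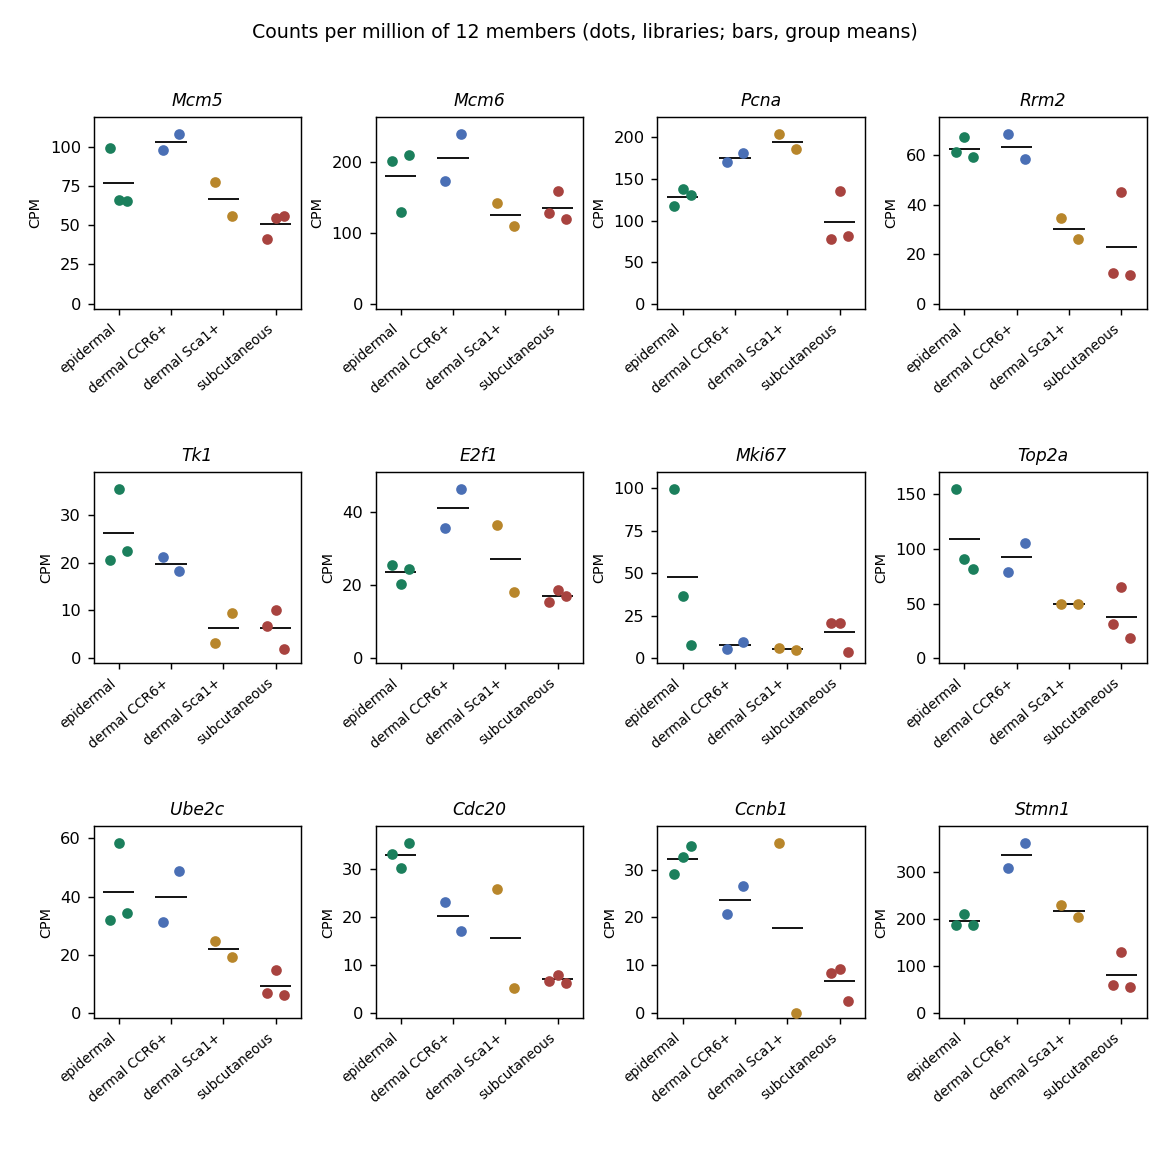
Level in CPM (vertical axes, from 0) of 6 S-phase genes, 5 mitotic genes and Stmn1 in the 4 groups (horizontal axes), with a dot for each library and a bar at the group mean. The means of Mcm5, E2f1 and Stmn1 are highest in the dermal CCR6+ group, that of Cdc20 in the epidermal group and that of Pcna in the dermal Sca1+ group, and Mki67 spreads from 7.48 to 99.8 within the epidermal group.

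Among the mitotic genes, both that belong to the anaphase-promoting complex pathway were called between epidermal and subcutaneous ILCs (6.87% of all genes were called higher). Ube2c, the ubiquitin-conjugating enzyme that works with this ligase, was at 31.9, 58.4 and 34.2 CPM in the epidermal, 31.1 and 48.7 in the dermal CCR6+, 24.9 and 19.2 in the dermal Sca1+ and 6.89, 14.8 and 6.18 in the subcutaneous libraries. The epidermal, dermal CCR6+ and dermal Sca1+ libraries all lay above the subcutaneous ones. The fold changes over subcutaneous ILCs were 2.16 (SE 0.42, edgeR adjusted p = 0.00498) for epidermal, 2.10 (SE 0.45, edgeR adjusted p = 0.0188) for dermal CCR6+ and 1.24 (SE 0.45, edgeR adjusted p = 0.215) for dermal Sca1+ ILCs. The dermal CCR6+ call was lost without dermal CCR6+ replicate 2 or without subcutaneous replicate 1 or 3.

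Cdc20, the activator of the complex, was at 33.1, 30.2 and 35.4 CPM in the epidermal, 23.2 and 17.1 in the dermal CCR6+, 25.8 and 5.24 in the dermal Sca1+ and 6.69, 7.998 and 6.18 in the subcutaneous libraries. Its 3 epidermal libraries were close to each other and above all others, while the dermal Sca1+ libraries were far from each other. The fold change of epidermal over subcutaneous ILCs was 2.24 (SE 0.51, edgeR adjusted p = 0.0114), and fits without 1 library gave 2.16 to 2.35. Against dermal CCR6+ ILCs it was 0.71 (SE 0.56, edgeR adjusted p = 0.556).

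Cyclins A and B and their kinase Cdk1 drive entry into mitosis, with the Plk1 and Aurora kinases. Of these 7 genes Ccna2 and Ccnb2 were called between epidermal and subcutaneous ILCs, and Ccnb2 between dermal CCR6+ and subcutaneous ILCs. Over all genes 6.87% and 3.75% were called higher there. Ccnb2 was at 36.1, 22.8 and 35.9 CPM in the epidermal, 41.1 and 43.5 in the dermal CCR6+, 17.04 and 8.34 in the dermal Sca1+ and 10.1, 19.5 and 7.69 in the subcutaneous libraries. The fold changes over subcutaneous ILCs were 1.35 (SE 0.42, edgeR adjusted p = 0.0467) for epidermal and 1.77 (SE 0.46, edgeR adjusted p = 0.0432) for dermal CCR6+ ILCs, and each was lost in fits without subcutaneous replicate 1 or 3, epidermal replicate 3 or either dermal CCR6+ library, the epidermal one also without epidermal replicate 1. Ccna2 averaged 57.9 ± 4.797 CPM (SD, n = 3) in epidermal and 15.3 ± 11.9 CPM in subcutaneous ILCs, with a fold change of 1.92 (SE 0.50, edgeR adjusted p = 0.0214), which was lost without epidermal replicate 3 or subcutaneous replicate 1 or 3.

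Ccnb1 was at 29.00, 32.7 and 34.9 CPM in the epidermal, 20.8 and 26.5 in the dermal CCR6+, 35.5 and 0 in the dermal Sca1+ and 8.44, 9.11 and 2.46 in the subcutaneous libraries. All epidermal libraries lay above all subcutaneous ones, but dermal Sca1+ replicate 2 had no count, where 3 counts would be 0.258 CPM, while replicate 1 had the highest value of all. The fold change of epidermal over subcutaneous ILCs was 2.27 (SE 1.19, edgeR adjusted p = 0.215). A fold change of this size was called by edgeR without either dermal Sca1+ library (adjusted p of 0.0103 and 0.00788) or with only these 2 groups in the fit (adjusted p = 0.00932). Aurkb also had no count in that library and 7.56 CPM in the other of its group. Plk1 was at 12.03, 9.54 and 10.6 CPM in the epidermal, 9.31 and 12.01 in the dermal CCR6+, 5.34 and 7.91 in the dermal Sca1+ and 6.49, 3.83 and 4.203 in the subcutaneous libraries. Its epidermal and dermal CCR6+ libraries were above all subcutaneous ones, by 1.14 (SE 0.47, edgeR adjusted p = 0.114) and 1.14 (SE 0.51, edgeR adjusted p = 0.216). Cdk1 and Aurka had fold changes of 1.20 and 1.41 between epidermal and subcutaneous ILCs, with adjusted p of 0.07 and 0.127 in edgeR, and limma called both (adjusted p of 0.032 and 0.0332).

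Of 8 genes of the spindle and of cell separation 5 were called between epidermal and subcutaneous ILCs (Birc5, Hmmr, Nusap1, Prc1 and Tpx2). Between dermal CCR6+ and subcutaneous ILCs 2 were called (Nusap1 and Prc1), while Kif11, Kif20a and Kif23 were called in neither. Over all genes 6.87% and 3.75% were called higher in these comparisons. Whether calls gather in genes of any one role was not tested. Nusap1, which bundles spindle microtubules, was at 38.00, 30.6 and 32.2 CPM in the epidermal, 34.3 and 43.4 in the dermal CCR6+, 21.4 and 16.9 in the dermal Sca1+ and 7.97, 13.8 and 4.36 in the subcutaneous libraries. Epidermal and dermal libraries all lay above the subcutaneous ones, and the fold changes over these were 1.95 (SE 0.40, edgeR adjusted p = 0.00686) for epidermal and 2.16 (SE 0.43, edgeR adjusted p = 0.0138) for dermal CCR6+ ILCs. The second call was lost without dermal CCR6+ replicate 2 or subcutaneous replicate 1.

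Hmmr, a spindle-associated protein also known as a hyaluronan receptor, was at 24.9, 13.03 and 16.3 CPM in the epidermal, 8.21 and 9.11 in the dermal CCR6+, 7.18 and 10.6 in the dermal Sca1+ and 3.41, 5.22 and 4.12 in the subcutaneous libraries. In CPM only the epidermal libraries lay above all others. In TPM epidermal replicates 2 and 3, at 5.78 and 5.74, were just below dermal CCR6+ replicate 2, at 5.85. The fold change of epidermal ILCs was 2.09 (SE 0.45, edgeR adjusted p = 0.00888) over subcutaneous and 1.06 (SE 0.50, edgeR adjusted p = 0.273) over dermal CCR6+ ILCs. Birc5, the survivin subunit of the chromosomal passenger complex, was at 29.4, 43.1 and 31.7 CPM in the epidermal, 27.1 and 37.8 in the dermal CCR6+, 22.8 and 19.9 in the dermal Sca1+ and 3.88, 18.1 and 5.15 in the subcutaneous libraries. Subcutaneous replicate 2 came close to the dermal Sca1+ libraries, whereas replicates 1 and 3 were lower than every other library. Its fold change of epidermal over subcutaneous ILCs was 1.94 (SE 0.53, edgeR adjusted p = 0.0277), and the call was lost without epidermal replicate 2 or 3 or subcutaneous replicate 1 or 3. Prc1, which crosslinks microtubules of the central spindle, had fold changes of 1.93 (SE 0.40, edgeR adjusted p = 0.00697) for epidermal and 1.70 (SE 0.43, edgeR adjusted p = 0.0394) for dermal CCR6+ over subcutaneous ILCs. The first held without each library, and the second was lost in 8 of the 10 fits without 1 library. Tpx2, an activator of Aurora A, had 2.06 (SE 0.65, edgeR adjusted p = 0.0482) in the epidermal comparison and was lost in 8 of 10 such fits.

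At the kinetochore, Cenpa, the histone variant that marks the centromere, was at 28.5, 49.9 and 33.3 CPM in the epidermal, 108 and 73.5 in the dermal CCR6+, 49.9 and 33.8 in the dermal Sca1+ and 18.1, 33.7 and 25.4 in the subcutaneous libraries. Both dermal CCR6+ libraries lay above all others, with a fold change over subcutaneous ILCs of 1.81 (SE 0.35, edgeR adjusted p = 0.0121). Epidermal ILCs had -1.28 (SE 0.35, edgeR adjusted p = 0.0607) against dermal CCR6+ ILCs, which DESeq2 and limma called (adjusted p of 0.0173 and 0.0141). Without dermal CCR6+ replicate 1 the call against subcutaneous ILCs was lost (adjusted p = 0.081 in edgeR).

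Cenpe, a kinetochore motor, was at 11.7, 16.9 and 6.74 CPM in the epidermal, 7.89 and 5.74 in the dermal CCR6+, 0.509 and 1.98 in the dermal Sca1+ and 5.02, 3.62 and 1.35 in the subcutaneous libraries. All epidermal libraries exceeded both dermal Sca1+ ones, with a fold change of 3.25 (SE 0.91, edgeR adjusted p = 0.0459). Cenpf, a kinetochore protein of G2 and mitosis, was at 14.5, 13.8 and 12.5 CPM in the epidermal, 6.42 and 9.901 in the dermal CCR6+, 3.31 and 9.797 in the dermal Sca1+ and 3.48, 4.31 and 0.793 in the subcutaneous libraries. Epidermal libraries lay within a narrow range above all others, and the fold change over subcutaneous ILCs was 2.24 (SE 0.69, edgeR adjusted p = 0.0446), which was no longer called in 8 of 10 fits without 1 library. In TPM the epidermal values of Cenpf spread more, at 5.36, 4.35 and 2.33, with dermal CCR6+ replicate 2 at 3.04, and limma did not call it. The checkpoint kinases Bub1 and Bub1b had fold changes of epidermal over subcutaneous ILCs of 2.37 and 1.70 with adjusted p of 0.249 and 0.0562 in edgeR. Without subcutaneous replicate 2 Bub1b was called by edgeR, at 2.50 (adjusted p = 0.0132), and it was called by DESeq2 and limma with all libraries (adjusted p of 0.0197 and 0.031). Bub1 had no count in subcutaneous replicate 3.

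Top2a, the topoisomerase that untangles sister chromatids, and Mki67, the coat protein of mitotic chromosomes known as the proliferation antigen Ki-67, are both used to mark cycling cells, and they did not have the same order of libraries here. Top2a was at 155, 90.5 and 81.8 CPM in the epidermal, 79.3 and 106 in the dermal CCR6+, 49.3 and 49.2 in the dermal Sca1+ and 31.1, 64.9 and 18.6 in the subcutaneous libraries. Its epidermal and dermal CCR6+ libraries lay above all others, with a fold change of epidermal over subcutaneous ILCs of 1.52 (SE 0.42, edgeR adjusted p = 0.0294), lost without epidermal replicate 1 or subcutaneous replicate 1 or 3. Mki67 was at 99.8, 36.6 and 7.48 CPM in the epidermal, 5.58 and 9.37 in the dermal CCR6+, 6.04 and 4.55 in the dermal Sca1+ and 20.7, 20.9 and 3.88 in the subcutaneous libraries. It spanned 13.3-fold within the epidermal group, where replicate 3 was as low as the dermal libraries, and the dermal CCR6+ libraries lay below subcutaneous replicates 1 and 2. Its fold changes were 1.66 (SE 0.83, edgeR adjusted p = 0.193) for epidermal and -1.02 (SE 0.94, edgeR adjusted p = 0.579) for dermal CCR6+ over subcutaneous ILCs, and 2.68 (SE 1.01, edgeR adjusted p = 0.167) for epidermal over dermal CCR6+ ILCs. Foxm1, the transcription factor of mitotic genes, had the largest fold change of the set between epidermal and subcutaneous ILCs, 2.62 (SE 0.87, edgeR adjusted p = 0.0596), and fell short of the threshold with 5.16, 2.02 and 0.159 CPM in the subcutaneous libraries. DESeq2 and limma called it (adjusted p of 0.0103 and 0.0124), and edgeR did so without subcutaneous replicate 1, at 3.78 (adjusted p = 0.0283).

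Outside both classes, Stmn1 was at 187, 211 and 187 CPM in the epidermal, 309 and 361 in the dermal CCR6+, 229.7 and 205 in the dermal Sca1+ and 58.8, 129.7 and 54.1 in the subcutaneous libraries. The dermal CCR6+ libraries lay above all others, the epidermal and dermal Sca1+ libraries in one range, and the subcutaneous ones below all. The fold changes over subcutaneous ILCs were 2.05 (SE 0.33, edgeR adjusted p = 0.0049) for dermal CCR6+, 1.27 (SE 0.31, edgeR adjusted p = 0.0148) for epidermal and 1.43 (SE 0.33, edgeR adjusted p = 0.0592) for dermal Sca1+ ILCs. The epidermal call was lost without subcutaneous replicate 1 or 3, and without subcutaneous replicate 2 the dermal Sca1+ difference was called, with a fold change of 1.94 and adjusted p of 0.00262 in edgeR. Mybl2, which encodes B-Myb, was highest in the dermal CCR6+ libraries, at 11.4 and 14.6 CPM, and at 2.08, 4.24 and 0.0793 CPM in the subcutaneous ones, with a fold change of 2.60 (SE 1.05, edgeR adjusted p = 0.171). In TPM dermal Sca1+ replicate 2, at 4.68, lay between both dermal CCR6+ libraries, at 4.4 and 5.07.

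Several members overlap other genes, and the library kit does not mark strand. Reads of Ube2c and Tnnc2, Cdc20 and Elovl1, Ccna2 and Exosc9, Nusap1 and Oip5, Prc1 and Rccd1, and Tk1 and Afmid, which overlap, cannot be told apart by strand. Ccnb1, Ccnb2 and Tyms have an annotated pseudogene each.

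Further genes of the cycle were taken from 3 lists, with examples chosen by size among those called. Of 31 other S-phase genes 5 rose in epidermal over subcutaneous ILCs and 0 fell (6.87% and 13.3% of all genes), with a list median of 1.19. The 3 largest were Ung, the uracil glycosylase, at 2.998, Hells, a chromatin remodeler, at 2.54, and Gmnn, which encodes the Cdt1 inhibitor geminin, at 1.87 (SE 0.42, edgeR adjusted p = 0.0105), and Tipin and Usp1 were the others. Gmnn was at 21.2, 23.3 and 24.8 CPM in the epidermal, 17.5 and 15.97 in the dermal CCR6+, 9.47 and 3.61 in the dermal Sca1+ and 6.03, 6.89 and 6.03 in the subcutaneous libraries. Its epidermal libraries lay above all others. Dermal CCR6+ over subcutaneous ILCs gave 4 called genes (Dtl, Nasp, Slbp and Tipin), all higher (3.75% of all genes), led by Dtl, a subunit of the ligase that degrades Cdt1, at 2.24 (SE 0.48, edgeR adjusted p = 0.0183). Tipin, a fork protection protein, was called in 3 comparisons, the third being epidermal over dermal Sca1+ ILCs, where Gmnn and Exo1 were called higher too (2.75% of all genes).

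Among 36 other G2 and mitotic genes 4 rose (Ckap2l, Cks2, Jpt1 and Tmpo) and 1 fell (Lbr) in epidermal against subcutaneous ILCs (6.87% and 13.3% of all genes), with a list median of 1.16. Ckap2l, a spindle protein, had 1.93 and Cks2, a subunit of cyclin kinases, 1.37, while Lbr, the lamin B receptor, had -0.64 on the log2 scale. Dermal CCR6+ over subcutaneous ILCs gave 1 of the 36, Jpt1, at 1.12, against 3.75% of all genes called higher. Epidermal against dermal Sca1+ ILCs gave Ttk and Cdc25c higher and Gas2l3 lower (2.75% and 8.66% of all genes). Ttk, the checkpoint kinase Mps1, had no count in either dermal Sca1+ library and 9.96 ± 1.97 CPM in the epidermal ones, at least 90.9-fold higher when the dermal Sca1+ group is set to 3 counts in all. Cdc25c, the phosphatase that activates Cdk1, had 3.39 ± 2.47 CPM in the epidermal libraries, at least 30.9-fold higher. The exonuclease Exo1 had 2.57 ± 2.43 CPM, at least 23.5-fold higher, with an SD of nearly the size of the mean. These bounds allow for counting error in the dermal Sca1+ libraries only, and take the epidermal mean without its spread. Dermal Sca1+ replicate 2 also had 0 counts of the members Ccnb1 and Aurkb, where replicate 1 had 559 and 119.

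Regulators of G1 were called in both directions. Of 31 such genes, 30 of them tested, 2 rose and 6 fell in epidermal against subcutaneous ILCs (6.87% and 13.3% of all genes, the first close to the list's own share), with a list median of 0.13. Cdkn1a, the p21 inhibitor of cyclin kinases, was at 193, 231 and 188 CPM in the epidermal, 826 and 764 in the dermal CCR6+, 884 and 695 in the dermal Sca1+ and 592, 589 and 634 in the subcutaneous libraries. The epidermal libraries lay far below all others (5.19% of all genes were called lower in epidermal than in dermal CCR6+ ILCs), and the fold changes were -1.57 (SE 0.17, edgeR adjusted p = 0.000117) against subcutaneous, -1.96 (SE 0.18, edgeR adjusted p = 0.000192) against dermal CCR6+ and -1.95 (SE 0.18, edgeR adjusted p = 9.87e-05) against dermal Sca1+ ILCs. Btg2, an antiproliferative gene that p53 induces, was also lowest in the epidermal libraries, with fold changes of -1.69, -1.15 and -1.69 in these comparisons, all called. Cdkn1c, the p57 inhibitor, had -3.24 (SE 0.59, edgeR adjusted p = 0.00334) and Ccnd1, cyclin D1, -3.14 (SE 0.56, edgeR adjusted p = 0.00289) against subcutaneous ILCs. Myc, which promotes growth and entry into the cycle, had -1.37 (SE 0.22, edgeR adjusted p = 0.00173), and Lin54, the MuvB subunit that binds the CHR element, -1.11 (SE 0.31, edgeR adjusted p = 0.0314). Cdkn1c and Myc were also called lower in epidermal than in dermal Sca1+ ILCs (8.66% of all genes were called lower there). Low Myc was not confined to the epidermis, as it was the 1 G1 regulator called lower in dermal CCR6+ than in subcutaneous ILCs (601 of 16208 genes).

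The 2 called higher were Cdkn2c, the p18 inhibitor of cyclin D kinases, at 1.56 (SE 0.45, edgeR adjusted p = 0.0349), and Ccng2, a cyclin linked to cell cycle arrest. Ccng2 was at 88.1, 64.9 and 97.8 CPM in the epidermal, 155 and 151 in the dermal CCR6+, 81.7 and 62.4 in the dermal Sca1+ and 51.1, 56.5 and 40.8 in the subcutaneous libraries. Both dermal CCR6+ libraries lay above all others, with a fold change over subcutaneous ILCs of 1.63 (SE 0.24, edgeR adjusted p = 0.00308). Rbl2, which encodes p130, was called higher in epidermal than in dermal Sca1+ ILCs, at 1.17 (SE 0.30, edgeR adjusted p = 0.0308).

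**Figure D5:**
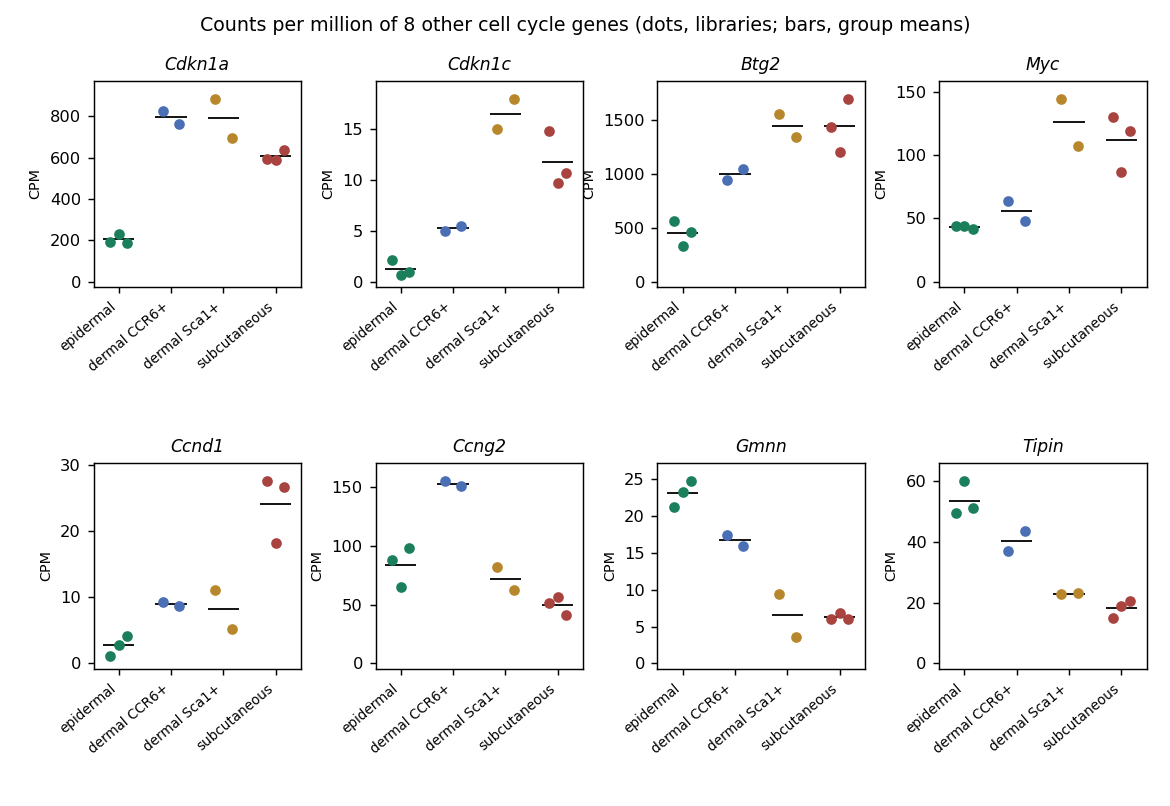
Level in CPM (vertical axes, from 0) of 6 G1 regulators and of Gmnn and Tipin in the 4 groups (horizontal axes), with a dot for each library and a bar at the group mean. Cdkn1a and Btg2 are lowest in the 3 epidermal libraries, Ccnd1 is highest in the subcutaneous ones, and Ccng2 in the 2 dermal CCR6+ ones.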

How the data were processed

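RNA of 10 libraries of skin ILCs was made into cDNA with a low-input full-length kit and Nextera XT, per the labels' protocols. Trimmomatic, STAR and RSEM were run with mm10, per the submitters' processing notes, but versions, settings, strand handling and annotation are not stated in those notes. For each library there is 1 table of RSEM gene results, per the file headers, with the authors' expected counts, in which RSEM shares ambiguous reads between genes, and the authors' TPM, deposited as scaled to a common total and corrected for gene length. The design text speaks of triplicates, and 2 libraries were analysed here for either dermal sort. Groups come from the sample titles.

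Expected counts were rounded, and 47224 of 47643 IDs were given symbols from GENCODE M21. In R 4.3.3, edgeR 4.0.16 (filterByExpr with a minimum count of 10, TMM, glmQLFit and glmQLFTest, two-sided) fitted 1 model of the 4 groups to 16208 genes, with Benjamini-Hochberg adjustment within each of 6 comparisons. The biological coefficient of variation was 0.62. An SE is the absolute log2 fold change over the square root of F. DESeq2 1.42.0 and limma 3.58.1 on log2(TPM + 1) were alternatives, with RLE size factors, other filters, blocks and each library left out. Dermal groups fitted without 1 library keep a lone library, assumed to vary like the others. The fit was tested on simulated data. No 2 libraries of a group held the same values or agreed within counting noise, so none was treated as a repeat deposit. Totals of 11627222 to 18118544 make 3 counts at most 0.258 CPM, for counting error only.

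Members, lists and rules were chosen with earlier results of these data known, so the lists are not independent evidence. All called members are named. Library values are given for a fixed list of 17 members and for called members among the 4 largest fold changes of their class, and a few more members were given values after these were seen. From the other lists the 3 largest called genes per direction are named, and the remaining called ones by symbol. The printed promoters were also a fixed list, from which E2f1 was left out because the table's start lies inside the gene, and to which Ube2c was added after its values were seen.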

Additional observations from a re-analysis of the deposited data

How the results depend on the processing

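Of the 22 calls of single members, 440 values under 20 alternatives gave 343 that stayed called in the same direction, 97 no longer called and 0 reversed. Most losses came with a library left out, above all subcutaneous replicate 3 (13 calls), subcutaneous replicate 1 (12) and epidermal replicate 3 and dermal CCR6+ replicate 2 (10 each). The cause of changes with the tool or filter was not tested. Fewer libraries leave a fit with less power. Low counts limit Mcm10, Ccne1, Cenpe and Bub1.

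With no filter beyond 1 count, the members called were 20 between epidermal and subcutaneous, 3 between epidermal and dermal CCR6+, 2 between dermal CCR6+ and dermal Sca1+, 2 between dermal Sca1+ and subcutaneous, 9 between epidermal and dermal Sca1+ and 19 between dermal CCR6+ and subcutaneous ILCs, against 13, 0, 0, 0, 2 and 7. In the same order, 1319, 496, 264, 523, 846 and 935 of 25793 genes were then called higher in the first group. The numbers called lower were 2802, 1532, 383, 805, 2072 and 1357. The 3 members between epidermal and dermal CCR6+ ILCs were Mki67, higher, and Cdt1 and Cenpa, lower. A filter of 5 CPM in 2 libraries gave 1 (Cenpa, lower) between epidermal and dermal CCR6+ and 1 (Stmn1, higher) between dermal Sca1+ and subcutaneous ILCs. Of 12137 genes, 187 were called higher and 952 lower in the former comparison, and 229 and 192 in the latter. DESeq2 gave 2, 2, 2, 6 and 13 members in the last 5 of the 6 comparisons. Over all 16208 genes, DESeq2 called 585, 263, 486, 1010 and 972 higher in these 5 comparisons and 1416, 298, 707, 1957 and 1373 lower. With limma on log2(TPM + 1) there were 21 members in the first, then 1, 2, 4 and 14 (none changed between the dermal groups). For limma, in the order given, 2051, 390, 356, 946 and 899 of all genes were higher and 2230, 707, 535, 1472 and 1079 lower. With an epidermal or subcutaneous library left out, 5 to 15 members were called between epidermal and subcutaneous ILCs. Over all genes 698 to 1065 were then higher and 1582 to 1983 lower. Epidermal against dermal CCR6+ ILCs gave 0 to 1 (72 to 198 and 660 to 883 of all genes). Dermal Sca1+ against subcutaneous ILCs gave 0 to 3 (106 to 224 and 76 to 196). Dermal CCR6+ against subcutaneous ILCs gave 3 to 11 (401 to 671 and 368 to 701). Fits with a lone dermal library are not counted here. For epidermal against dermal Sca1+ ILCs, the 1 member called without epidermal replicate 1 was Cdt1, lower in the epidermis, as was the 1 called with a block by the runs of numbers in the deposited names. Over all genes 459 were higher and 1309 lower without that library, and 441 and 1333 with that block.

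The title numbers showed no clear pairing of the samples. Deviations of same-numbered libraries of different groups correlated at -0.04 to 0.11 over 13 pairs, and those of different numbers at -0.10 to 0.09 over 24. The highest value was that of epidermal and subcutaneous replicates 1, and 2 of the 6 libraries of these groups correlated best with their own number. With 2 libraries in a dermal group, the correlations of a library with both differ only in sign, so such pairs tell little. A replicate block by title number gave 14 called members between epidermal and subcutaneous ILCs, 1 (Mki67) between epidermal and dermal CCR6+, 1 (Mki67) between epidermal and dermal Sca1+ and 4 between dermal CCR6+ and subcutaneous ILCs. Of all 16208 genes, 895, 72, 252 and 437 were called higher in these comparisons and 1772, 596, 1021 and 450 lower. The block by runs of deposited numbers gave 2 (Cdt1, lower, and Cenpa, lower) between epidermal and dermal CCR6+ ILCs, where 142 of 16208 genes were called higher and 850 lower.

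The S-phase minus mitotic level moved with its summary. For epidermal ILCs (0.43) it was 0.18 on edgeR's log2 CPM, 1.31 with medians, 0.68 as a log2 ratio of mean TPM and 0.14 with Mybl2 added to the S-phase and Stmn1 to the mitotic genes. The last 3 gave 1.83, 0.94 and 0.75 for dermal CCR6+ ILCs (1.06, and 1.18 with a pseudocount of 0.1), 1.60, 1.22 and 0.64 for dermal Sca1+ ILCs (0.95), and 1.45, 1.58 and 0.80 for subcutaneous ILCs (1.11). Without 1 library it ranged from 0.37 to 0.52, 0.996 to 1.12, 0.81 to 1.09 and 0.97 to 1.25. The epidermal value was the lowest of the 4 groups with each of these summaries, while the highest group changed with them.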

Other observations

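A few members departed from the order of their class, and they are given here as values, chosen after these were seen. Pcna and Cdt1, both of S phase, were highest on average in the dermal Sca1+ ILCs (195 ± 13.1 CPM and 30.7 ± 16.3 CPM, SD, n = 2), which had the lowest mean for 8 other S-phase genes. Cenpa, a centromere histone, was at 90.5 ± 24.1 CPM in the dermal CCR6+ ILCs and 37.2 ± 11.2 CPM (n = 3) in the epidermal ILCs, where 20 of the other mitotic genes had their highest mean. Mki67 had 47.9 ± 47.2 CPM in the epidermal ILCs and 7.48 ± 2.68 CPM in the dermal CCR6+ ILCs, while Top2a had 109 ± 40.2 CPM and 92.5 ± 18.6 CPM. In dermal Sca1+ replicate 2, Ccnb1 and Aurkb had 0 counts and Cdc6 0.172 CPM, while Ccne1, at 12.1 CPM, had its highest value of the 10 libraries.

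Within groups, the median coefficient of variation over the mitotic genes was 24.03% in the epidermal, 18.99% in the dermal CCR6+, 33.7% in the dermal Sca1+ and 64.3% in the subcutaneous ILCs, and over the S-phase genes 23.4%, 16.7%, 28.4% and 39.4%. Subcutaneous replicate 3 was the lowest of its group for 30 of the 46 genes and replicate 2 for 1.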
